A study of Mus musculus with 16 samples.

Results

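The 6 genes described here, Srebf2, Scap, Insig1, Insig2, Stard4 and Lrp1, cover the control of SREBP2 and the uptake of lipoprotein cholesterol in the liver. They were chosen by gene symbol, and all 6 were among the 12618 genes of the deposited table. They were followed in mouse livers from 2 groups, 8 libraries labelled Cyp7a1 CRISPR and 8 labelled control CRISPR, where CRISPR stands for editing of a gene by a guided nuclease, and Cyp7a1 is the gene of cholesterol 7-alpha-hydroxylase, which begins bile acid synthesis. Mice of both groups ate a Western diet for 8 weeks. Strain, sex, age, the route by which the editing reagents were given and the target of the control guide are not stated in the labels. Nor do the labels say that every library is from its own animal, so the p-values cover only the spread between these libraries, which may be technical.

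SREBP2, the product of Srebf2, is a transcription factor made as a precursor in the membrane of the endoplasmic reticulum. SCAP, its escort protein, carries it to the Golgi when membrane cholesterol is low, where 2 proteases release the active factor. When sterols are plentiful, the INSIG proteins hold SCAP and its cargo back in the endoplasmic reticulum. The released factor turns on genes of cholesterol synthesis and of lipoprotein uptake, and in cultured cells it also turns on Srebf2 itself, Insig1 and Stard4. Insig2 is not a classical SREBP2 target, and in mouse liver its transcription is known to respond to insulin and to the bile acid receptor FXR.

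The promoters of Srebf2, Insig1 and Insig2 are shown because these 3 genes hold the SREBP2 circuit's factor and its 2 anchors, which differed in their response below. Each sequence is the 250 bases before a RefSeq transcription start on GRCm38.p6, 5′ to 3′ on the strand of the gene. Capitals mark matches on either strand to CCAAT, the box of the SREBP partner NF-Y, to GGGCGG, the Sp1 box, to the E-box CACGTG, or to TCACNCCA, the first letters of a sterol regulatory element. The Srebf2 window lies at chr15:82147019-82147268 on the plus strand, the Insig1 window at chr5:28071162-28071411 on the plus strand, and the Insig2 window, the most upstream of 3 starts, at chr1:121332590-121332839 on the minus strand.
Srebf2: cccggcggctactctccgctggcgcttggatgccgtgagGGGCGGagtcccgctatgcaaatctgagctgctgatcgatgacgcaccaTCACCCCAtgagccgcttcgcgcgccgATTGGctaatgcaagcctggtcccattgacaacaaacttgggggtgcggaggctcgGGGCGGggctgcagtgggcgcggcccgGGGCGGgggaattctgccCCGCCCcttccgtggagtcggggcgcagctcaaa
Insig1: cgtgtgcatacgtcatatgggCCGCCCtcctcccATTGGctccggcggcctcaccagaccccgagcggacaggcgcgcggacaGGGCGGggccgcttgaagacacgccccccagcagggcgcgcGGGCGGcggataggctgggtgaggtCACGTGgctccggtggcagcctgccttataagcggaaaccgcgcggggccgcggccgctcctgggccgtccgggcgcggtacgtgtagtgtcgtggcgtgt
Insig2: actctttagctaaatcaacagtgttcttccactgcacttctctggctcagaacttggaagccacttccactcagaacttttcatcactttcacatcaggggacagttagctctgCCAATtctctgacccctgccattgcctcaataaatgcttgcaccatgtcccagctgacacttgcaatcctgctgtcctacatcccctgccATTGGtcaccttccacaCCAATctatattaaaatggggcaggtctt

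Of the 6 genes, 5 had a RefSeq promoter window of 300 bases, 250 before and 50 after the start, in 8 windows. The full motif TCACNCCAC was in none of these 8 windows and in 1.24% of all 32851 windows. The shorter TCACNCCA, which lies within it and was added after the sequences had been seen, was in the Srebf2 window, at -162 to -155 from the start, and in 4.36% of all windows. A CCAAT box on the opposite strand lay at -135 to -131 from the Srebf2 start and at -216 to -212 from the Insig1 start, and this box was in 37.4% of all windows. The E-box CACGTG lay at -101 to -96 from the Insig1 start, was also in both of the overlapping Scap windows, and was in 7.15% of all windows. The Insig2 window printed above held 3 CCAAT boxes and neither an E-box nor GGGCGG, which was in 35.7% of all windows. Unlike it, the Insig2 windows at the other starts each held 1 GGGCGG and 0 CCAAT boxes. These matches describe letters only, and the counts per gene do not show which start a transcript used.

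Depth, as whole reads recovered from the normalized counts, was 23.4 ± 2.42 M reads per Cyp7a1-labelled library and 21 ± 3.46 M reads per control library (SD, n = 8 each), from 13.8 to 27.4 M. Cyp7a1 itself was not lower in the Cyp7a1-labelled livers, with 4702 ± 1126 normalized counts against 3587 ± 1252 in control livers (SD, n = 8 each; limma adjusted p = 0.227). Gene-level counts cannot tell an edited transcript from an unedited one, so directions below rest on the labels. All 6 hepatocyte markers looked at were detected in every liver. Their summed level was 219263 to 393475 normalized counts in Cyp7a1-labelled livers and 213835 to 322960 in control livers, and Tat was the 1 of 6 past the threshold, higher. Of the 7 Kupffer cell, 6 stellate cell, 5 endothelial and 4 cholangiocyte markers, 0 passed in limma, edgeR or DESeq2, and at an unadjusted p under 0.05 in limma 1 endothelial marker was higher and 1 lower. The library Cyp7a1 36 went against its group in the 20 cholesterol synthesis enzymes, 2 of which were above their mean over all livers. The other Cyp7a1-labelled livers had 17 to 20 enzymes above that mean, and controls had 0 to 8. Values without Cyp7a1 36 are therefore given for Srebf2, Insig1, Stard4, the Srebf2 to Srebf1 ratio and these enzymes. Since this library was picked for its low enzyme values, values without it show only its weight.

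Srebf2 and Scap were higher and Insig2 was lower in the Cyp7a1-labelled livers, while the changes of Insig1, Stard4 and Lrp1 did not pass the threshold. Thus 2 of 6 genes were higher and 1 lower (limma, adjusted p under 0.05 over 12617 genes), where 3.07% of all genes were higher and 3.05% lower. The groups overlapped for each of the 6 genes, and over all genes 1.04% had groups that did not overlap. Because the livers are bulk tissue, fewer cells of a type and less RNA per cell cannot be told apart in any of these values.

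**Figure D1:**
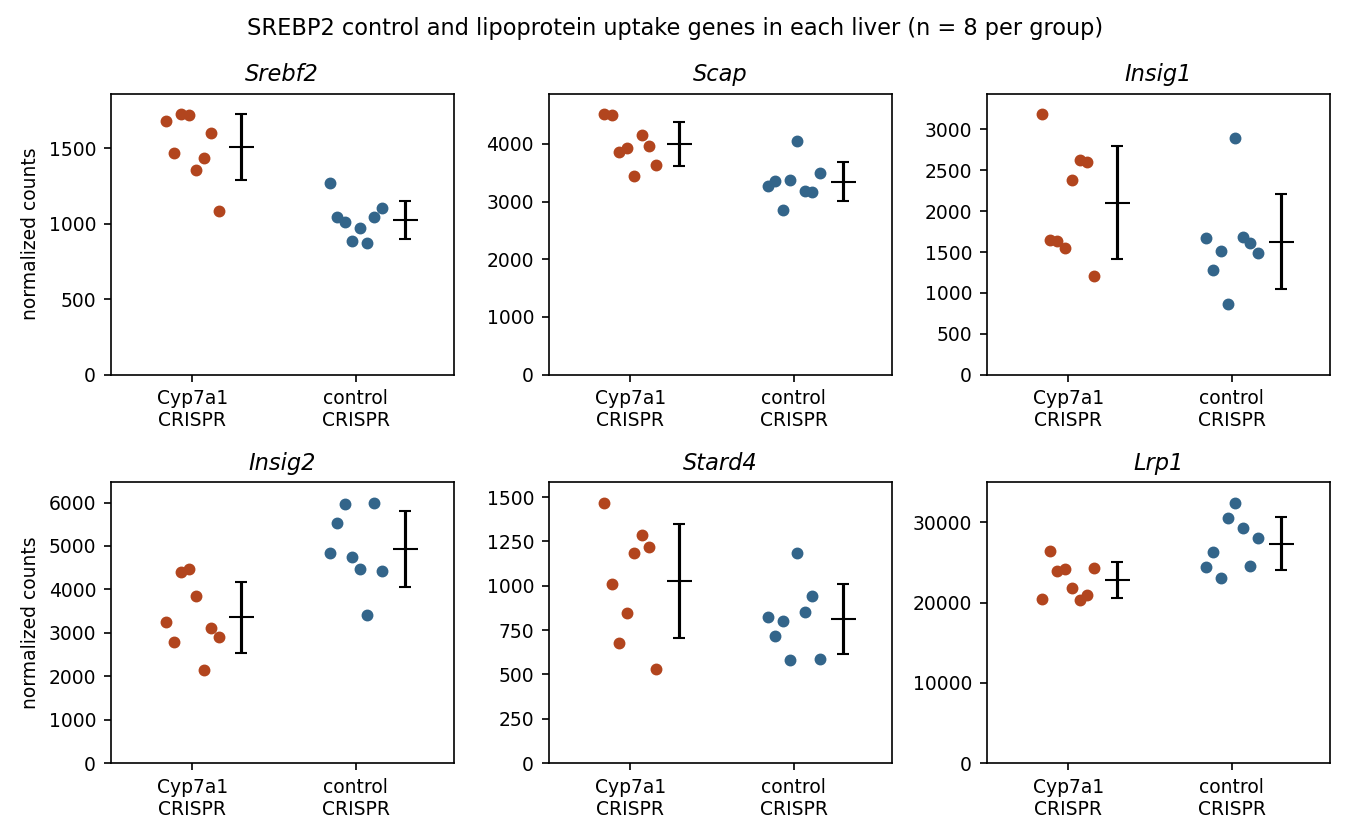
Normalized counts (vertical axes, from 0) of the 6 genes in each liver, with 8 Cyp7a1 CRISPR livers on the left and 8 control CRISPR livers on the right of each panel; bars give the mean and SD. Srebf2 was above 1271, the highest control, in 7 of the 8 Cyp7a1-labelled livers, and Insig1 and Stard4 spread widely in both groups.

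Srebf2 (ENSMUSG00000022463, chromosome 15, 82147181 to 82205379 on mm10, plus strand), the gene of the transcription factor itself, ranged from 1087 to 1725 normalized counts with a median of 1534 in Cyp7a1-labelled livers. In control livers it ranged from 873 to 1271 with a median of 1027. Of the Cyp7a1-labelled livers 7 were above every control, and the 1 within the control range was Cyp7a1 36. Srebf2 rose 1.47-fold, a log2 fold change of 0.55 (95% interval 0.35 to 0.75; limma adjusted p = 0.00225). Without Cyp7a1 36 the log2 fold change was 0.62. Its coefficient of variation was 14.5% in Cyp7a1-labelled livers and 12.5% in control livers. Mir33, a microRNA gene, lies within Srebf2 and shares 0 exonic bases with it.

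Scap (ENSMUSG00000032485, chromosome 9, 110333288 to 110384950, plus strand), the escort, ranged from 3453 to 4514 normalized counts with a median of 3944 in Cyp7a1-labelled livers. Control livers ranged from 2861 to 4047 with a median of 3309. All 8 Cyp7a1-labelled livers lay above the control mean and 3 lay above every control, of which Control 20 was the highest. The rise was 1.2-fold, a log2 fold change of 0.26 (95% interval 0.12 to 0.40; limma adjusted p = 0.0311). The call ended when any 1 of 8 libraries was left out (Cyp7a1 2, 5, 26 or 28, or Control 13, 16, 25 or 35), with an adjusted p of up to 0.0572. Scap shares 985 exonic bases with the opposite-strand gene 5830462I19Rik, and because the strand setting of the counting is not known, reads of the pair cannot be told apart.

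Insig2 (ENSMUSG00000003721, chromosome 1, 121304353 to 121332589, minus strand) fell while Insig1 did not pass, although both encode anchors of SCAP. Insig2 ranged from 2149 to 4462 normalized counts with a median of 3171 in Cyp7a1-labelled livers, against 3408 to 5994 with a median of 4793 in control livers. Every Cyp7a1-labelled liver was below the control mean and 5 were below every control. The log2 fold change was -0.57 (95% interval -0.87 to -0.27; limma adjusted p = 0.0259), or 0.675 of the control level. The adjusted p was 0.0512 without Cyp7a1 28 and 0.0509 without Control 12, with log2 fold changes of -0.56 and -0.54.

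Insig1 (ENSMUSG00000045294, chromosome 5, 28071363 to 28078662, plus strand) ranged from 1201 to 3185 normalized counts with a median of 2013 in Cyp7a1-labelled livers. In control livers it ranged from 861 to 2899 with a median of 1564. The groups overlapped broadly, with Control 20 above 7 of the 8 Cyp7a1-labelled livers and Cyp7a1 36 below 7 of the 8 controls. The log2 fold change of Insig1 was 0.37 with a 95% interval of -0.082 to 0.83, or 0.945-fold to 1.78-fold (limma adjusted p = 0.358). It was 0.50 without Control 20 and 0.48 without Cyp7a1 36, and neither passed the threshold. Its coefficient of variation, 32.7% in Cyp7a1-labelled and 35.7% in control livers, was the highest of the 6 genes in each group.

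The balance between the anchors was tested directly as the ratio of Insig1 to Insig2 within each liver. On the log2 scale the ratio of their normalized counts was -0.71 ± 0.67 in Cyp7a1-labelled livers and -1.65 ± 0.60 in control livers (SD, n = 8 each). The difference of 0.94, a 1.92-fold higher ratio, had a two-sided exact permutation p of 0.0121 over 12870 assignments, and 0.0121 after adjustment over the 2 ratios tested. All 8 Cyp7a1-labelled livers were above the control mean, 3 were above every control, and in Cyp7a1 26 the count of Insig1 was above that of Insig2. The difference was 0.80 to 1.09 when any 1 library was left out, and the p of each such test stayed under 0.05. A ratio shows that the 2 genes changed unequally and not that either stayed constant.

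The sister factor Srebf1, which encodes SREBP1 and drives fatty acid synthesis, moved opposite to Srebf2. It ranged from 4768 to 6138 normalized counts in Cyp7a1-labelled livers and from 9089 to 17100 in control livers, with no overlap (log2 fold change -0.98, limma adjusted p = 3.23e-05). The log2 ratio of Srebf2 to Srebf1 was -1.88 ± 0.32 in Cyp7a1-labelled livers and -3.41 ± 0.38 in control livers (SD, n = 8 each). The groups did not overlap, with Cyp7a1 36 at -2.50 still above the highest control at -2.96. The difference of 1.53 is a 2.89-fold higher ratio, and its two-sided exact permutation p of 0.000155 is the smallest that 12870 assignments can give. The ranges of Srebf1 and Srebf2 already fixed this separation, so the p of the ratio is no support beyond the 2 single genes. Without Cyp7a1 36 the difference was 1.62.

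**Figure D2:**
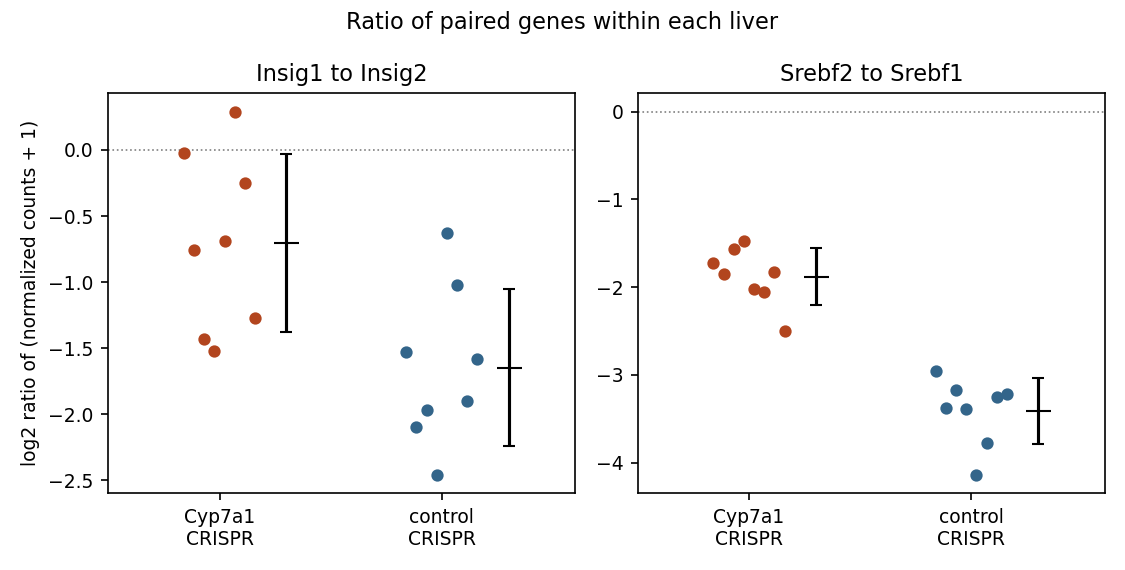
Log2 ratio of normalized counts (+ 1) of Insig1 to Insig2 (left) and of Srebf2 to Srebf1 (right) in each liver, with Cyp7a1 CRISPR livers left of control CRISPR livers; bars give the mean and SD of 8 livers. The Srebf2 to Srebf1 ratio separates the groups, while the Insig1 to Insig2 ratio of 5 of the 8 Cyp7a1-labelled livers lies within the control range.

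Stard4 (ENSMUSG00000024378, chromosome 18, 33199355 to 33213862, minus strand) encodes a soluble carrier that moves cholesterol between membranes. It ranged from 529 to 1468 normalized counts with a median of 1099 in Cyp7a1-labelled livers and from 584 to 1184 with a median of 813 in control livers. Both the lowest and the highest of all 16 livers were Cyp7a1-labelled, Cyp7a1 36 and Cyp7a1 2. The log2 fold change was 0.30 with a 95% interval of -0.10 to 0.71, or 0.932-fold to 1.64-fold (limma adjusted p = 0.406), and it was 0.43 without Cyp7a1 36 (adjusted p = 0.155).

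Lrp1 (ENSMUSG00000040249, chromosome 10, 127538161 to 127621148, minus strand) encodes a large endocytic receptor that takes up lipoprotein remnants. It ranged from 20350 to 26417 normalized counts with a median of 22889 in Cyp7a1-labelled livers and from 23073 to 32439 with a median of 27192 in control livers. All 8 Cyp7a1-labelled livers were below the control mean and 4 were below every control. The log2 fold change was -0.26 (95% interval -0.43 to -0.092), and its limma adjusted p of 0.0621 missed the threshold. The call depended on the setting, since Lrp1 passed with quantile normalization (adjusted p = 0.00148), with equal totals (0.0121), with DESeq2 (0.0154), without Cyp7a1 5 (0.0437) and without Control 13 (0.0397). Macrophages and stellate cells also express Lrp1. The summed level of the 7 Kupffer cell markers was 5179 to 22033 normalized counts in Cyp7a1-labelled livers, highest in Cyp7a1 24, and 5962 to 10690 in control livers, and that of the 6 stellate cell markers was 7580 to 13434 in Cyp7a1-labelled livers and 6032 to 14593 in control livers. No marker of either list was at 0 in any liver, and their part in the Lrp1 values was not tested.

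Per length of exon the order of the 6 genes was the same in both groups except for Srebf2 and Stard4, the lowest pair. In Cyp7a1-labelled livers the mean levels were 1286 ± 125 normalized counts per kilobase for Lrp1, 968 ± 235 for Insig2, 681 ± 223 for Insig1, 537 ± 50.6 for Scap, 210 ± 30.5 for Srebf2 and 184 ± 57.7 for Stard4 (SD, n = 8). In control livers they were 1543 ± 186 for Lrp1, 1417 ± 252 for Insig2, 526 ± 188 for Insig1, 449 ± 45.8 for Scap, 145 ± 35.1 for Stard4 and 143 ± 17.8 for Srebf2. The ranges of neighbours in this order overlapped, except that Scap lay above Srebf2 and Stard4 in both groups, and Insig2 lay above Insig1 in control livers alone, at 981 to 1726 per kilobase against 278 to 937. In Cyp7a1-labelled livers the ranges of Insig2 and Insig1 overlapped, at 619 to 1285 against 388 to 1030 per kilobase.

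Around these genes, Srebf1, described above, and the protease gene Mbtps1 were lower, and most of the enzymes that SREBP2 drives were higher. In the list of SREBP escort, cleavage and turnover genes, 0 of 23 non-members tested were higher and 2 were lower (limma). Of all genes, limma called 3.07% higher and 3.05% lower. The median log2 fold change of these non-members was 0.0062 against 0.0034 over all genes. At an unadjusted p under 0.05, 4 of the 27 listed genes, members included, were higher and 5 lower, where 10.1% of all genes were higher and 10.4% lower at that threshold. Of the same 27, edgeR and DESeq2 each called 2 higher and 3 lower. The 2 higher were the members Srebf2 and Scap, and the member Insig2 was among the 3 lower. Of all genes, edgeR called 3.02% higher and 3% lower, and DESeq2 4.34% higher and 4.54% lower. The 2 lower non-members were Srebf1 and Mbtps1, the site-1 protease that makes the first cut in SREBP precursors, with 1695 ± 88.7 normalized counts in Cyp7a1-labelled livers and 1893 ± 68.5 in control livers (log2 fold change -0.16, limma adjusted p = 0.0232). The adjusted p of Mbtps1 was 0.0557 with equal totals and 0.0506 without Cyp7a1 28. Mbtps2, the site-2 protease that makes the second cut, had 127 ± 19.6 in Cyp7a1-labelled livers and 107 ± 12.6 in control livers (log2 fold change 0.24, adjusted p = 0.179).

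Of the 20 cholesterol synthesis enzymes, 17 were higher and 0 lower (limma), with a median log2 fold change of 0.96. At an unadjusted p under 0.05 all 20 were higher and 0 lower, edgeR called 17 higher and 0 lower, and DESeq2 18 and 0. Of all genes, limma called 3.07% higher and 3.05% lower, edgeR 3.02% and 3%, and DESeq2 4.34% and 4.54%. The unadjusted threshold was passed by 10.1% and 10.4% of all genes in these directions. This list was chosen with earlier results of these data known. Msmo1, which encodes a methylsterol oxidase of the later pathway, had 2965 ± 1156 normalized counts in Cyp7a1-labelled livers and 948 ± 289 in control livers (3.05-fold, limma adjusted p = 0.000403). The log2 fold changes of Msmo1, Fdps and Dhcr7 were 1.61, 1.87 and 0.98, all larger than the 0.55 of Srebf2. These differences between genes were not tested. Without Cyp7a1 36 the log2 fold changes of Msmo1, Fdps and Dhcr7 were 1.74, 2.10 and 1.07, and 18 enzymes were higher and 0 lower (limma). That library was picked for low values of these same enzymes, so the larger changes follow from the choice and are no further support.

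Among lipoprotein receptors and their adaptors, 0 of 25 genes were higher and 2 lower (limma). Of all genes, limma called 3.07% higher and 3.05% lower. At an unadjusted p under 0.05, 4 were higher and 4 lower, a threshold that 10.1% and 10.4% of all genes passed in these directions. With edgeR 0 were higher and 3 lower, against 3.02% and 3% of all genes. With DESeq2 2 were higher and 4 lower, against 4.34% and 4.54% of all genes. DESeq2 called more of the 12617 genes than limma did, 548 higher and 573 lower against 387 and 385. Scarb1, the HDL receptor, fell, with 4839 ± 710 normalized counts in Cyp7a1-labelled livers and 6620 ± 809 in control livers (log2 fold change -0.46, limma adjusted p = 0.0078).

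Of 17 intracellular sterol carriers, 3 were higher, 2 lower and 12 not called (limma, adjusted p under 0.05), with a median log2 fold change of 0.039. Over all genes 3.07% were higher and 3.05% lower at that threshold. Tmem97, an endoplasmic reticulum protein that binds the lysosomal cholesterol exporter NPC1, rose, with 1216 ± 159 normalized counts in Cyp7a1-labelled livers and 869 ± 92.9 in control livers (log2 fold change 0.48, limma adjusted p = 0.00214). Npc2, which hands cholesterol to NPC1 inside the lysosome, rose by 0.29 (adjusted p = 0.0151) but lost its call with equal totals (0.0788). Gramd1b, which carries cholesterol from the plasma membrane to the endoplasmic reticulum, fell by 0.49 (limma adjusted p = 0.00889). Its groups were narrowly apart, at 97.8 to 149 normalized counts in Cyp7a1-labelled livers and 151 to 252 in control livers. Groups without overlap were found for 1.04% of all genes. Stard3, a sterol tether on late endosomes, fell by 0.23 (limma adjusted p = 0.0107).

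**Figure D3:**
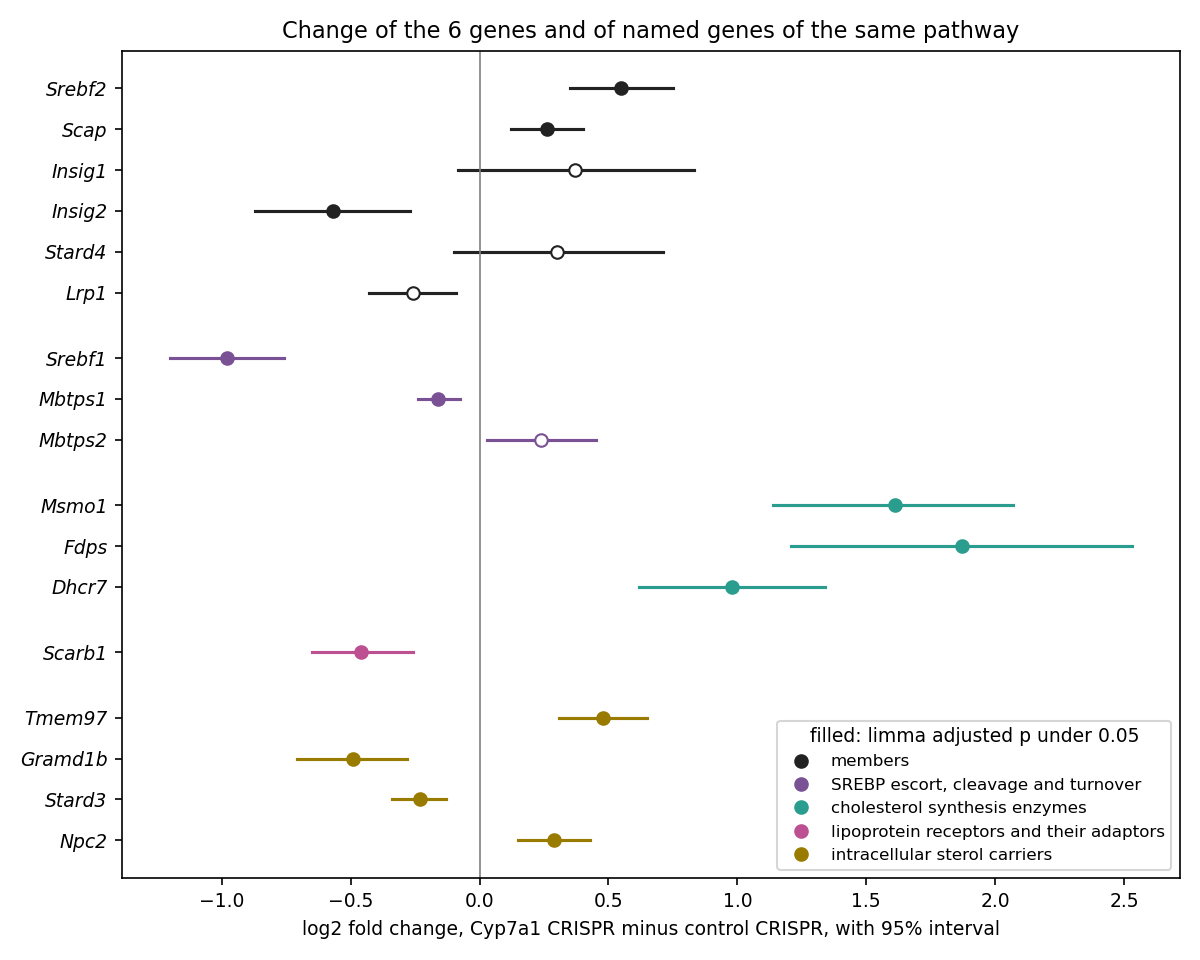
Log2 fold change, Cyp7a1 CRISPR minus control CRISPR, of the 6 genes and of named genes of 4 related lists, with the 95% interval from limma; filled points have an adjusted p under 0.05. Srebf2 and Scap lie right of 0 and Insig2 left of it, while the intervals of Insig1 and Stard4 include 0 and that of Lrp1 does not although its adjusted p is 0.0621.

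Whether livers with more Srebf2 also had more of the other 5 genes was looked at within each group, in 10 relations over 8 livers each. None of the 10 passed (lowest p 0.13 and lowest adjusted p 0.587, two-sided exact permutation test of Pearson's r). For Insig1, Pearson's r with Srebf2 was 0.40 in Cyp7a1-labelled livers (Spearman's rho 0.048) and 0.18 in control livers (rho -0.17), with exact permutation p of 0.351 and 0.697. The value of 0.40 rests on single livers, since r was -0.24 without Cyp7a1 36 and -0.19 without the 2 livers farthest from the median of Srebf2. Without these 2 livers, r in Cyp7a1-labelled livers went from 0.46 to 0.92 for Insig2 and from 0.45 to -0.45 for Scap. For Stard4 it went from 0.40 to -0.44, and for Lrp1 from -0.16 to 0.049. The values without the 2 livers were not tested. With 8 livers a group, missing the threshold does not show that the levels are unrelated.

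Insig1 and Stard4 followed each other from liver to liver among the Cyp7a1-labelled livers, while their relation in control livers did not pass after adjustment. This pair was noticed in the data, and all 15 pairs of the 6 genes were then tested in both groups, 30 relations in all. In Cyp7a1-labelled livers Pearson's r was 0.93 (exact permutation p = 0.000496, adjusted p = 0.0149) and Spearman's rho 0.98 (exact permutation p = 0.000397, adjusted p = 0.0119), and r was 0.85 without the 2 livers farthest from the median of Insig1. In control livers r was 0.86 (exact permutation p = 0.00789, adjusted p = 0.0852) and rho 0.90 (exact permutation p = 0.00456, adjusted p = 0.0685), and r fell to 0.55 without the 2 farthest livers, so that the relation in controls rests in part on them. Over all 16 livers, with the group means removed, r was 0.89, and the difference between the groups in r was not tested. Control 20 was the highest control and Cyp7a1 36 the lowest Cyp7a1-labelled liver for both genes.

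**Figure D4:**
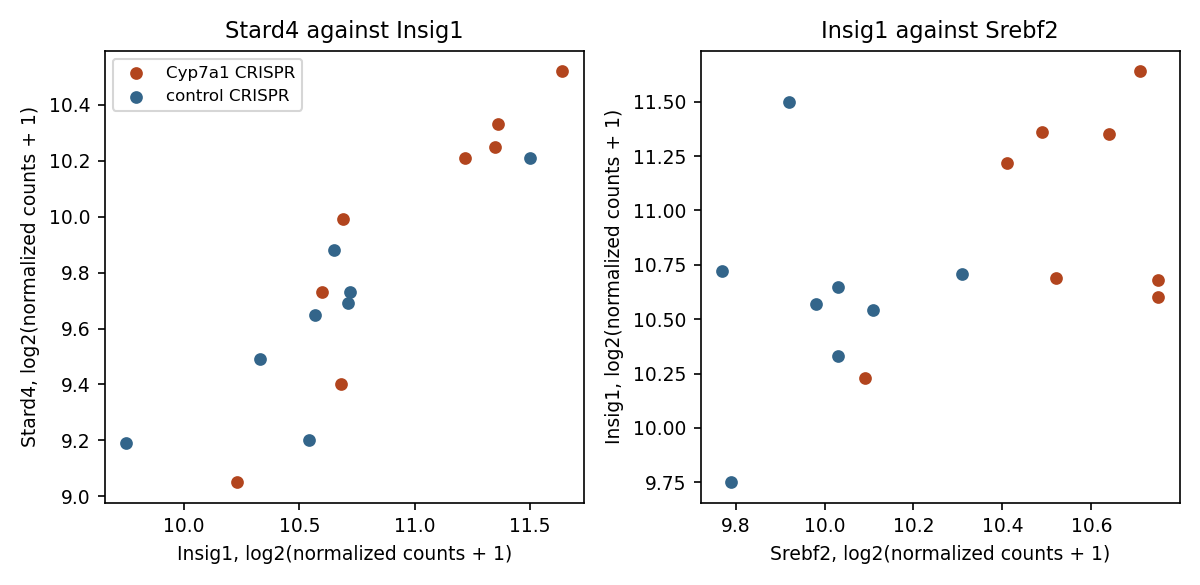
Stard4 against Insig1 (left) and Insig1 against Srebf2 (right), both axes as log2(normalized counts + 1), 1 point per liver, coloured by group. For Stard4 and Insig1, r was 0.93 in Cyp7a1-labelled livers, which passed after adjustment, and 0.86 in control livers, which did not (adjusted p = 0.0852, exact permutation test) and was 0.55 without the 2 farthest livers. The difference between the groups in r was not tested. Srebf2 was above every control in 7 of the 8 Cyp7a1-labelled livers and had no called relation with Insig1 in either group.

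The genes whose levels over 16 livers, with the group means removed, were most like those of each member are given as a description with Pearson's r. For Insig1 they included Sc5d, which encodes a cholesterol synthesis enzyme, at 0.94 and Acly, which encodes ATP citrate lyase, at 0.92, and for Stard4 they included Manf at 0.92 and Sc5d at 0.91. For Srebf2 they were Ripk4 at 0.88 and Ppargc1a and Tmem9 at 0.86, and for Scap Adra1b and Slc25a38 at 0.86 and Trit1 at 0.85. For Insig2 they were Rlim at 0.83, Ube2d2a at 0.80 and Prkdc at 0.79, and for Lrp1 Sardh at 0.87 and Gm20319 and Pogz at 0.86. These were picked as the highest r among 12617 genes over 16 livers, so their size carries no test.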

How the data were processed

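Libraries of mRNA were made from flash-frozen liver, per the labels' protocols. The deposited values are normalized counts, a signal per gene and library whose steps are those of gene counts divided by 1 factor per library. The submitters' processing notes name mm10, STAR 2.7.11a, Trim Galore 0.6.10, R 3.6.3, DESeq2 and featureCounts, without their roles; annotation, strand setting and gene filter are not stated. Here, whole reads were recovered by dividing each library by a fitted step, with 99.945% to 99.992% of values within 0.05 of a whole read. The smallest value was 1 read in 6 of the 16 libraries and more in the others, so the step was fitted to all low values; in most libraries a simpler check, which takes the smallest value as 1 read, does not recover whole reads, and count tests on them serve only as alternatives.

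The main test was limma 3.58.1 in R 4.3.3 (trend, two-sided) on log2(value + 1), adjusted by Benjamini and Hochberg's method across 12617 genes, called under 0.05; fold changes are on that scale, which understates those of low genes. A minimum mean of 10 removed 0 genes (lowest mean 13.3), and 1 gene with a text cell was left out. Ratios and correlations were tested by exact permutation of livers. Also tried were quantile normalization, equal totals, a minimum mean of 50, no filter, a pseudocount of 8, edgeR 4.0.16 and DESeq2 1.42.0 on recovered reads, and leaving out each library. The limma, edgeR and DESeq2 fits were tested on simulated counts with known changes. Coordinates and exon lengths are from GENCODE M21 (GRCm38), and promoters from RefSeq (GRCm38.p6).

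The members and the gene lists were chosen with earlier results of these data known. Named genes are the 6 members, from each list the called non-members of lowest p (up to 4), Srebf1, Mbtps1 and Mbtps2, and for each member the 3 genes most like it across livers; some genes that the rule names are not reported here.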

Additional observations from a re-analysis of the deposited data

Results flagged for a closer look

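By Dixon's 95% criterion on the log2 scale, 1 liver stood apart from the rest of its group in 3 of 44 sets of 8 livers. The sets were 20 genes and 2 ratios in both groups of livers. Chance flags about 1 group in 20, or 2.2 here. None of the 6 genes was among them. Srebf1 had 17100 normalized counts in Control 20, against 9089 to 12036 in the other controls. Fdps had 223 in Cyp7a1 36, against 650 to 1261 in the other Cyp7a1-labelled livers. On the log2 scale these values of Fdps were 7.81 against 9.35 to 10.30. Gramd1b had 97.8 in Cyp7a1 28, against 127 to 149 in the other Cyp7a1-labelled livers.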

How the results depend on the processing

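Srebf2 and both ratios kept their direction and their call, and Insig1 and Stard4 stayed short of the threshold, under every alternative run on them. Lrp1 passed with quantile normalization (log2 fold change -0.33), equal totals (-0.27) and DESeq2 (-0.26), which made 2 members lower under each of these, and the list of lipoprotein receptors and adaptors had 4 lower under each and 2 higher with DESeq2. With any 1 library left out, log2 fold changes ranged from 0.23 to 0.30 for Scap, -0.64 to -0.48 for Insig2, and -0.29 to -0.22 for Lrp1. Over the same fits 1 to 2 members were higher and 0 to 2 lower, 1 to 2 and 1 to 3 genes of the SREBP escort list, 0 to 1 and 2 to 4 of the receptor list, and 230 to 399 and 245 to 414 of all genes, lowest without Cyp7a1 28. The lower count of all genes was 256 without Control 16. Correlations of Srebf2 that changed sign were never past the threshold. In controls those with Scap became 0.11 under quantile normalization and under equal totals, and those with Stard4 0.0075 and 0.10. Leaving out 1 liver, r in controls ranged from -0.18 to 0.12 with Scap, -0.34 to 0.16 with Stard4, -0.25 to 0.46 with Insig1 and -0.023 to 0.56 with Insig2. In Cyp7a1-labelled livers it ranged from -0.24 to 0.57 with Insig1, -0.44 to 0.67 with Stard4 and -0.29 to 0.12 with Lrp1. Apart from what a smaller sample explains, the cause was not tested. No paired analysis was possible because the groups share no replicate numbers.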

Other observations

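No relation of Lrp1 with another of the 6 genes passed after adjustment over the 30 relations. Lrp1 and Insig1 had a Pearson's r of -0.87 in Cyp7a1-labelled livers (exact permutation p = 0.0114, adjusted p = 0.0852) with Spearman's rho of -0.83, and r was -0.91 without the 2 livers farthest from the median of Insig1. In control livers the r of Lrp1 and Insig1 was 0.16 (rho 0.12, exact permutation p = 0.739, adjusted p = 0.887). Lrp1 and Scap had r of -0.029 in Cyp7a1-labelled livers (rho -0.29, exact permutation p = 0.938, adjusted p = 0.986). In control livers their r was 0.80 (rho 0.76, exact permutation p = 0.00945, adjusted p = 0.0852), and it was 0.39 without the 2 livers farthest from the median of Scap. Differences between the groups in these values were not tested.

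Single livers combined high and low members in different ways. Control 20 had the highest Scap, Insig1, Stard4 and Lrp1 of the controls, with 4047, 2899, 1184 and 32439 normalized counts, but Srebf2 at 971, below the control median of 1027. Cyp7a1 17 and Cyp7a1 19 had the highest Srebf2 of all livers, 1725 and 1720, together with the highest Insig2 of their group, 4411 and 4462, and with Insig1 of 1637 and 1552, below the group median of 2013. Cyp7a1 26 had the lowest Insig2 of all livers, 2149, with Insig1 of 2629.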
